A study of Mus musculus with 9 samples.

Results

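The 10 glutathione transferase genes described here are Gsta2, Gsta3 and Gsta4 of the alpha class, Gstm1, Gstm2 and Gstm3 of the mu class, Gstp1 of the pi class, Gstt1 and Gstt2 of the theta class, and Gstk1, which belongs to the kappa class of mitochondria and peroxisomes. They were chosen by symbol: every probe set whose annotation names 1 of these genes and no other was taken, which gave 15 probe sets of 45037 on the array, for 10 of the 18193 genes that have such a probe set. A further probe set names Gsta2 together with Gsta1 and Gm3776 and is given beside Gsta2. The samples are labelled as livers of female MRL +/+ mice, an inbred strain prone to autoimmunity, bought at 4 weeks of age and kept for 1 week before treatment. The animals then received intraperitoneal injections in 100 µl of corn oil, 2 per week for 6 weeks, and were killed at 11 weeks of age, 24 h after the last injection. One group was given 0.2 mmol/kg dichloroacetyl chloride (DCAC), another 0.2 mmol/kg dichloroacetic anhydride (DCAA), and the controls corn oil alone, although their labels call them untreated. Each group had 3 mice, with 1 array per mouse. DCAC and DCAA both transfer a dichloroacetyl group to proteins and differ in the leaving group, which is chloride in DCAC and dichloroacetate in DCAA.

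Glutathione transferases join the thiol of glutathione to reactive, electrophilic molecules, and the conjugates are exported from the hepatocyte and trimmed to mercapturates. The cytosolic classes are abundant in liver, and several alpha, mu and pi genes are textbook targets of the transcription factor NRF2, which binds antioxidant response elements, and of the xenobiotic receptors CAR and PXR. Each class has its own preferences: alpha enzymes reduce lipid hydroperoxides, Gsta4 takes up the lipid aldehyde 4-hydroxynonenal, Gsta3 conjugates aflatoxin epoxide in mouse liver, mu enzymes conjugate epoxides and aryl halides, and theta enzymes act on small halogenated molecules.

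The promoters of members that stood lower on all DCAA arrays than in the corn oil controls are shown beside that of Gstp1, which stood higher. None of these differences had an adjusted p under 0.05, and whether the motifs bear on the signals was not tested. Each is the 250 bases before the gene's start in RefSeq's annotation of GRCm38.p6, printed 5′ to 3′ on the gene's strand, and capitals mark matches on either strand to TGACNNNGC or TGAGNNNGC, cores of the antioxidant response element with C or G as the fourth base. Gsta2 lies at chr9:78347146-78347395 (minus strand), Gsta3 at chr1:21240335-21240584 (plus), Gstm2 at chr3:107986421-107986670 (minus), Gstm3 at chr3:107969175-107969424 (minus) and Gstp1 at chr19:4037913-4038162 (minus).
Gsta2: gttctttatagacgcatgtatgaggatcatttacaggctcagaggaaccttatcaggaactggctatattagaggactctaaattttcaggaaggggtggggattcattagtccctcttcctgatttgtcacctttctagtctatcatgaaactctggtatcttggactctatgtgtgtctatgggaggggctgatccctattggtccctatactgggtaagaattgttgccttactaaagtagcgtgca
Gsta3: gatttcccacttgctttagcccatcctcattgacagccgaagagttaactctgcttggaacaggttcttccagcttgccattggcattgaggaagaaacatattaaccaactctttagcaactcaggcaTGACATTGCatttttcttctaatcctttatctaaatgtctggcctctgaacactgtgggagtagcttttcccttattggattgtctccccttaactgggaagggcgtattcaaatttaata
Gstm2: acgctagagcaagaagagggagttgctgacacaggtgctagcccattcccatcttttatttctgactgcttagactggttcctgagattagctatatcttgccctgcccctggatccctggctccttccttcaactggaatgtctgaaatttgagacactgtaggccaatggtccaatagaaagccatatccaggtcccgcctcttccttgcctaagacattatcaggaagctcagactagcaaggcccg
Gstm3: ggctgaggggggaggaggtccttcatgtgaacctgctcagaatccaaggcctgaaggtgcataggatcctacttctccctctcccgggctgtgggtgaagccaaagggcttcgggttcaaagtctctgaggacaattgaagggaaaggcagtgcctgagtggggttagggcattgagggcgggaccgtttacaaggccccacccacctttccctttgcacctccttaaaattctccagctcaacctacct
Gstp1: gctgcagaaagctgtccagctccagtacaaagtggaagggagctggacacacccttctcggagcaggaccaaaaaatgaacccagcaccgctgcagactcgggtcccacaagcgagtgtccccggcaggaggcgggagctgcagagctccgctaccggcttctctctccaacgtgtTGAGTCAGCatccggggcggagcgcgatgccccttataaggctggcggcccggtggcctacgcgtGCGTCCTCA
Gsta3 held TGACATTGC, which began 121 bases before the start. Gstp1 held TGAGTCAGC, which began 74 bases before the start and fills both the antioxidant response core and the AP-1 site, and a second match, GCGTCCTCA read from the other strand, that began 9 bases before the start. In the window of Gstt1, not printed, TGAGAGAGC began 89 bases before the start. Neither core was found in the windows of Gsta2, Gstm1, Gstm2, Gstm3 or Gstk1. Bases further upstream were not searched, so these genes may hold either core outside the window. TGACNNNGC was found in 10.2% of 32851 promoter windows of this length in the same table, TGAGNNNGC in 14.4% and TGAGTCAGC in 0.347%, all searched on both strands and with the last a special case of the one before it. Promoter windows were found for 8 of the 10 members, with 2 windows for Gstm1. Gsta4 and Gstt2 were not matched. Of other motifs, TATAAA was in the windows of 2 members (12.4% of all windows) and CCAAT in those of 5 (33.8% of all windows). The members also share places in the genome: the gene table orders Gstm6, Gstm3, Gstm2, Gstm1 and Gstm4 next to each other on chromosome 3, places Gstt1 between Gstt3 and Gstt4 and Gstt2 between Gstt4 and Mif on chromosome 10, and puts Gsta4 beside Gsta1 on chromosome 9 and Gstp1 beside its near copy Gstp2 on chromosome 19.

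Signals are linear intensities in arbitrary units that the authors had scaled to the same trimmed mean on every array, and the level of one probe set is not set against that of another. The array labelled control 2 went against its liver label. All 14 measured kidney tubule markers stood above their range on the other 8 arrays, with a summed signal of 199377 against 1065 to 1647, and 13 of 14 hepatocyte markers stood below it, with a sum of 26811 against 492032 to 665969. Albumin stood at 1678 there and between 43741 and 65450 elsewhere, and the median rank correlation of control 2 with the other arrays was 0.806, whereas pairs of the other 8 arrays ran from 0.859 to 0.929. The comparisons therefore use 2 controls, 3 DCAC and 3 DCAA arrays, and control 2 is given apart. DCAA 3 stood somewhat apart as well: its median rank correlation with the others was 0.861, against 0.898 to 0.904 for the remaining 7, its median signal 214 against 157 to 186, and it was the lowest of the 8 for the brightest probe sets of Gsta2, Gsta3, Gsta4 and Gstm3. Without it the DCAA difference given below was -1.24 for Gsta2, -0.65 and -0.55 for Gsta3, -0.53 for Gsta4, -0.97 and -0.96 for Gstm3 and 0.37 for Gstp1. Arrays also differed in the 3′/5′ ratio of pyruvate carboxylase, a measure of how complete the labelled transcripts are: controls, DCAC 1 and DCAC 2 lay between 2.85 and 3.99, and DCAC 3 and the 3 DCAA arrays between 6.43 and 12.8. All differences below are log2 differences from limma with 95% intervals, and a result passed where its p, adjusted by Benjamini and Hochberg over the 24531 probe sets tested, was under 0.05.

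All 15 probe sets were above the median of the array on all 8 arrays, and none passed in any comparison. With DCAC, 4 of the 15 had an unadjusted p under 0.05, all lower than control, and 0 passed, where 0.0326% of all probe sets passed, 5.02% had such a p and 2.55% had it with a lower value (limma). With DCAA, 6 of the 15 had an unadjusted p under 0.05, all lower, and 0 passed, against 0.0815% of all probe sets that passed, 12.6% with such a p and 6.28% with it and a lower value. With all treated mice in 1 group, 6 of the 15 had an unadjusted p under 0.05, all lower, and 0 passed, against 0.0734%, 7.22% and 3.09% of all probe sets. These counts hold repeat probe sets of the same gene, such as those of Gstm3, which are not separate results. By 1 probe set per gene, the brightest, 2 of the 10 genes had such a p with DCAC. With DCAA 4 did, and with all treated mice 4, all lower (limma). Taking the brightest probe set of each gene, 1 of the 10 genes lay below both controls in all 3 DCAC mice, where 12.5% of all probe sets did. In the 3 DCAA mice 5 of the 10 genes did so, namely Gsta2, Gsta3, Gsta4, Gstm2 and Gstm3, where 15.6% of all probe sets did, and Gstp1 alone lay above both controls, as 16.1% of all probe sets did. Counted by probe set, as these shares are, 4 of the 15 lay below both controls with DCAC and 7 with DCAA. The median difference of the 10 genes was -0.18 with DCAC and -0.16 with DCAA, beside -0.03 and -0.01 over all probe sets. DCAC and DCAA were compared with the same 2 controls, so their values for a gene are not independent of each other. The median 95% interval of a member's probe set reached 1.33-fold either way, and the low number of mice limits the precision.

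**Figure D1:**
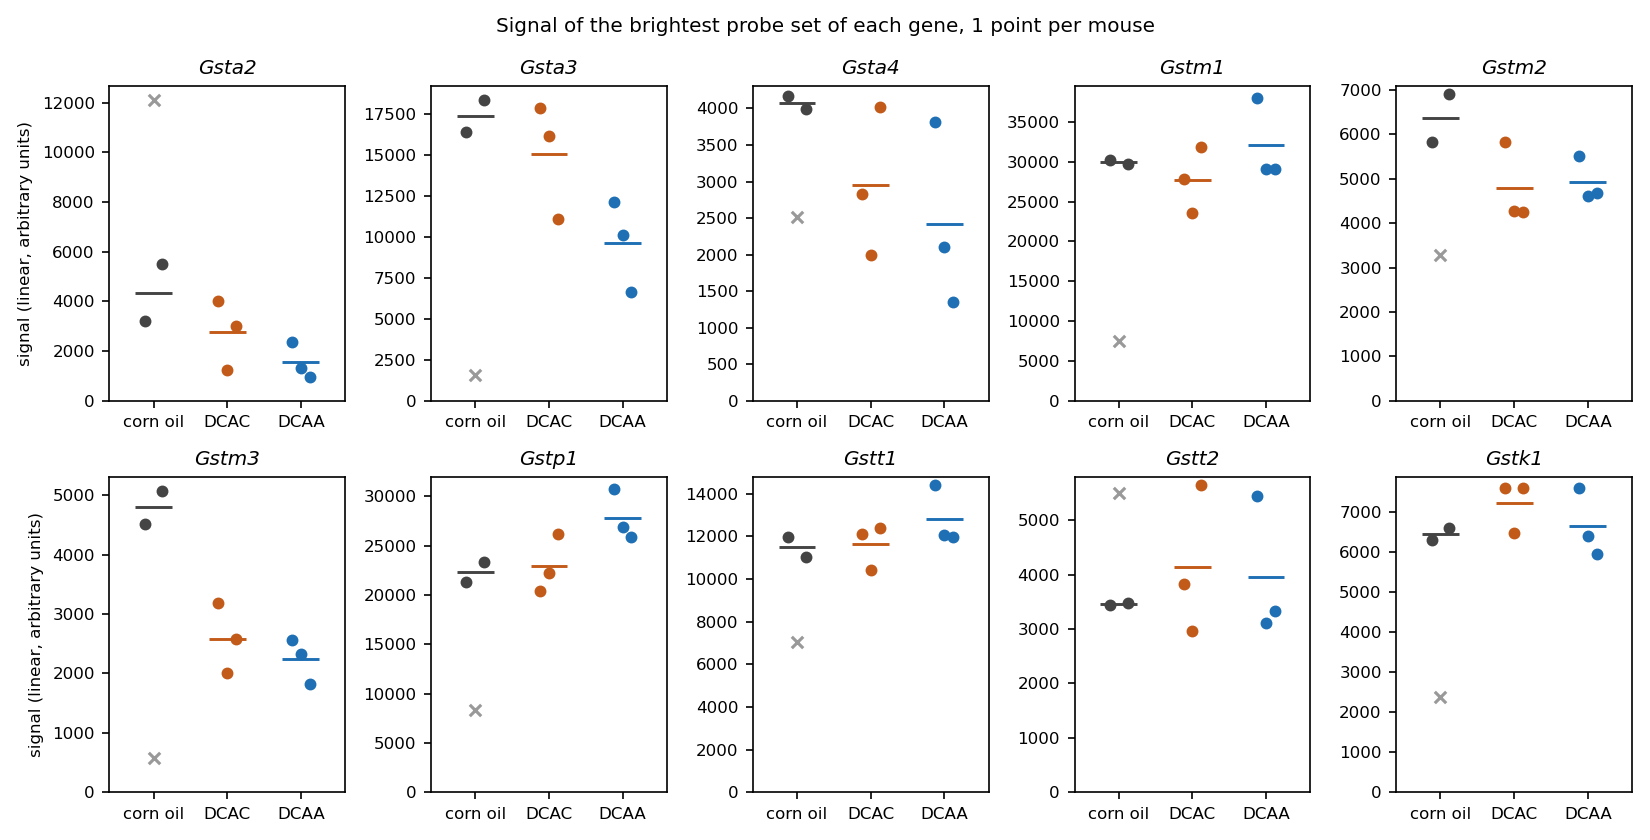
Linear signal (arbitrary units, from 0) of the brightest probe set of each of the 10 genes. Each point is 1 mouse, bars are group means over the points, and the grey cross is control 2, which is in no mean. The 6 treated mice lie below both controls for Gstm3, and the 3 DCAA mice lie above both controls for Gstp1.

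Gstm3, a mu class enzyme, had the smallest p of the 10 genes against control with both compounds. Its brighter probe set (1427474_s_at) read 4513 and 5071 in the controls, 3178, 2010.1 and 2576 with DCAC, and 2571, 2320.1 and 1828 with DCAA. The highest treated mouse, DCAC 1, stood below the lower control, so the groups did not overlap. The mean was 4792 ± 395 (SD, n = 2) in controls, 2588 ± 584 (n = 3) with DCAC and 2240 ± 378 (n = 3) with DCAA. The DCAC difference was -0.91 (-1.36 to -0.46, limma adjusted p = 0.392), or 53.2% of control. The DCAA difference was -1.11 (-1.56 to -0.66, limma adjusted p = 0.0938), or 46.3% of control. Neither passed. With the 6 treated mice in 1 group it was -1.01 (-1.42 to -0.60, limma adjusted p = 0.103), which ranked 30 by p among all probe sets, and 3 of the 15 member probe sets lay below both controls in all 6 treated mice, where 5.4% of all probe sets did.

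The other Gstm3 probe set (1427473_at) is named as detecting this gene alone, whereas the suffix of the brighter one marks probes that can bind transcripts of several genes. It read 1184 and 975 in the controls, 730.4, 530 and 507 with DCAC, and 606, 504 and 469 with DCAA, again with every treated mouse below both controls. Its difference was -0.89 with DCAC (limma adjusted p = 0.587) and -1.04 with DCAA (limma adjusted p = 0.156), and its correlation with the brighter probe set was 0.94 over the 8 arrays. Leaving out DCAA 1 brought the DCAA difference of the brighter probe set to -1.22, which passed (limma adjusted p = 0.0480), and leaving out DCAC 1 brought the difference of all treated mice to -1.09, which passed as well (limma adjusted p = 0.0329). It passed under no other alternative, and over the 16 alternatives without control 2 the DCAA difference ran from -1.22 to -0.97. Control 2 read 574 and 15.0 on the Gstm3 probe sets, 0.120 and 0.0139 of the mean of the other controls. With all 9 arrays the difference of the brighter probe set was 0.11 for DCAC and -0.09 for DCAA, and that of the other probe set 0.50 and 0.35. The sign therefore rests on leaving that array out, except for the brighter probe set with DCAA, whose difference kept its sign but shrank.

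Gstm2, its neighbour on the chromosome and another mu enzyme, showed a smaller difference of the same sign. It read 5820.2 and 6904 in the controls, 5822, 4277 and 4243 with DCAC, and 5516, 4608 and 4671 with DCAA. All DCAA mice stood below both controls, and DCAC 1 stood just above control 1. The difference was -0.42 with DCAC (-0.80 to -0.04, limma adjusted p = 0.967) and -0.37 with DCAA (-0.75 to 0.01, limma adjusted p = 0.413), the latter -0.24 without control 3.

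Gstm1, the major mu enzyme of mouse liver, was measured by 4 probe sets that did not all vary together. The brightest (1416416_x_at) read 30199 and 29692 in the controls, 27814, 23603 and 31852 with DCAC, and 37974, 29112 and 29074 with DCAA. DCAA 1 was the highest of the 8 and DCAC 2 the lowest, and the groups overlapped. The difference was -0.12 with DCAC (-0.49 to 0.25) and 0.09 with DCAA (-0.28 to 0.46, limma adjusted p = 0.990 and 0.866). A second bright probe set (1448330_at) followed it, with a correlation of 0.94 over the 8 arrays and differences of -0.20 and -0.02. The other probe sets of Gstm1 correlated with the brightest at 0.30 (1425626_at) and 0.12 (1425627_x_at), and with each other at 0.64. Of these, 1425626_at read 2349 and 1796.5 in the controls, 1641, 1476 and 1442 with DCAC, and 1841, 1739 and 2011 with DCAA, so that all 3 DCAC mice and DCAA 2 lay below both controls. Its DCAC difference was -0.44 (-0.81 to -0.07, limma adjusted p = 0.940) and -0.24 without control 1, and 1425627_x_at differed by -0.34 with DCAC (-0.23 without DCAC 3) and -0.18 with DCAA. Which transcripts each of these probe sets detects was not tested.

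Among the alpha genes, Gsta2, a hydroperoxide-reducing enzyme inducible in rodent liver, showed the widest differences with the widest intervals. It read 3201 and 5492 in the controls, 4034, 1262 and 3009 with DCAC, and 2386, 1328 and 973 with DCAA. The DCAA mice all stood below both controls, and the DCAC mice overlapped both other groups. The difference was -0.76 with DCAC (-1.73 to 0.22, limma adjusted p = 0.968) and -1.53 with DCAA (-2.50 to -0.55, limma adjusted p = 0.216), or 34.7% of control. Single mice moved the DCAC value: it was -0.27 without DCAC 2, -0.37 without control 3 and -1.14 without control 1. The probe set that Gsta2 shares with Gsta1 and Gm3776 followed it with a correlation of 0.99 over the 8 arrays. It read 2369 and 3928 in the controls, 2614, 875 and 1907 with DCAC, and 1774, 747 and 505 with DCAA, a difference of -0.90 and -1.80 (limma adjusted p = 0.967 and 0.200). With DCAC it was -0.45 without DCAC 2 and -0.54 without control 3. Near-identical copies of these genes cannot be told apart by that probe set. Control 2 read 12108 for Gsta2, 2.79 times the mean of the other controls, and Gsta2 and Gstt2 were the 2 members brighter there than in both other controls.

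Gsta3, the constitutive alpha enzyme of mouse liver, stood lower in the DCAA mice than in the controls on both of its probe sets. The brighter one (1423436_at) read 16427 and 18386 in the controls, 17877, 16168 and 11096 with DCAC, and 12146, 10116 and 6628 with DCAA. DCAC 1 and DCAC 2 lay among or just below the controls, whereas DCAC 3 lay among the DCAA mice. The difference was -0.24 with DCAC (-0.78 to 0.30, limma adjusted p = 0.981) and -0.90 with DCAA (-1.43 to -0.36, limma adjusted p = 0.200), or 53.7% of control. The second probe set (1423437_at) read 4088 and 4391 in the controls, 4057, 3157 and 2678 with DCAC, and 3347, 2499.8 and 3083 with DCAA. All 6 treated mice stood below both controls on it, and it differed by -0.38 with DCAC and -0.52 with DCAA (limma adjusted p = 0.967 and 0.304), and by -0.24 with DCAC without DCAC 3. The correlation of both Gsta3 probe sets was 0.70 over the 8 arrays.

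Gsta4, the alpha enzyme for lipid aldehydes, varied among treated mice more than among controls. It read 4167 and 3993 in the controls, 2831, 2001 and 4021 with DCAC, and 3810.3, 2102 and 1354 with DCAA. DCAC 3 lay between the controls, DCAA 1 just below them, and the other 4 treated mice from 1354 to 2831. The difference was -0.53 with DCAC (-1.31 to 0.26, limma adjusted p = 0.978) and -0.88 with DCAA (-1.66 to -0.10, limma adjusted p = 0.347). Without DCAC 2 the DCAC difference was -0.27, and without DCAA 3 the DCAA difference was -0.53.

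**Figure D2:**
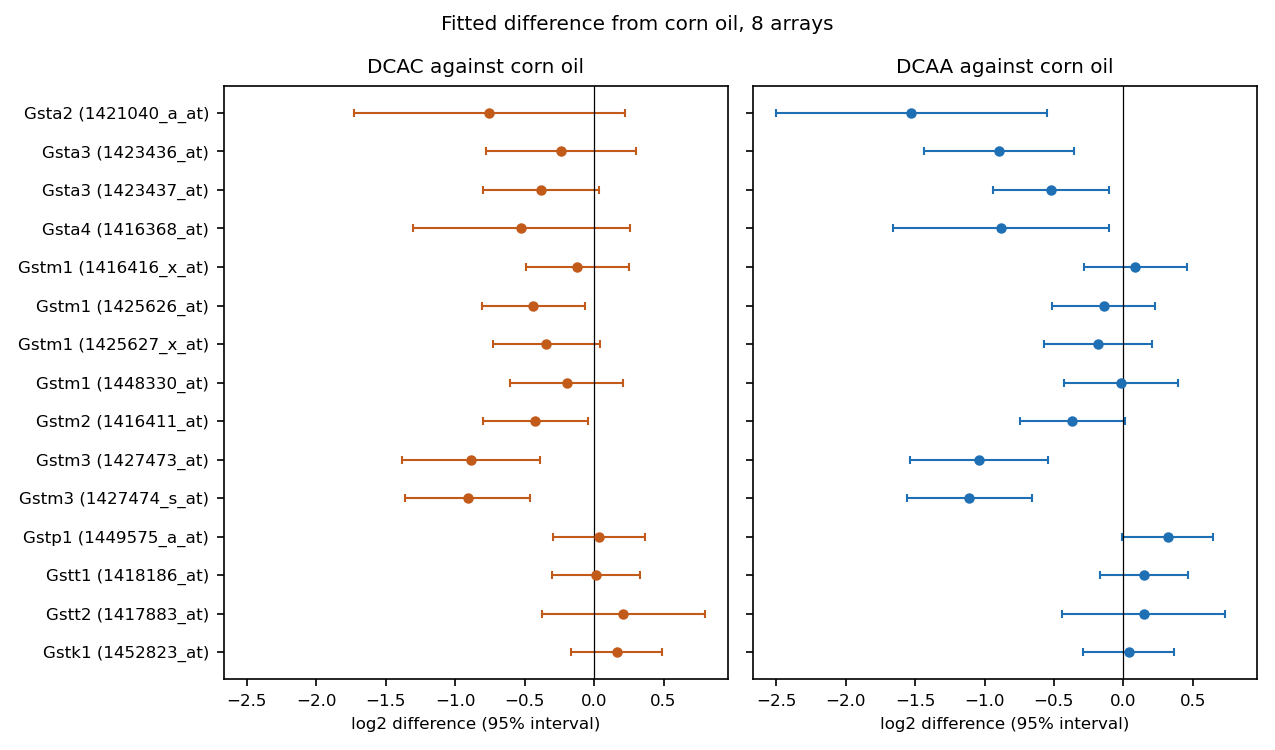
Log2 difference from corn oil of the 15 probe sets, with DCAC on the left and DCAA on the right. Points are the limma estimates over 8 arrays and bars their 95% intervals. The intervals of both Gstm3 probe sets lie below 0 with both compounds, and those of Gsta2, Gsta3 and Gsta4 lie below 0 with DCAA only. Those of Gstm2 and of Gstm1 1425626_at lie below 0 with DCAC only. Those of the pi, theta and kappa genes all span 0.

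Gstp1, the pi class enzyme, was the member whose DCAA mice stood above the controls. It read 21282 and 23308 in the controls, 20356, 22213 and 26154 with DCAC, and 30766, 26845 and 25901 with DCAA. The DCAA mice all exceeded both controls, and DCAC 3 lay among them. The difference was 0.32 with DCAA (-0.01 to 0.65, limma adjusted p = 0.417), or 125% of control, and 0.03 with DCAC (-0.30 to 0.36, limma adjusted p = 0.992). Whether its probe set, annotated to Gstp1 alone, also detects Gstp2, the near copy beside it, was not tested.

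The theta and kappa genes overlapped between groups throughout. Gstt1, which acts on small halogenated alkanes, read 11990.4 and 11035 in the controls, 12104, 10434 and 12378 with DCAC, and 14391, 12069 and 11975 with DCAA. Its difference was 0.01 with DCAC (-0.31 to 0.33) and 0.15 with DCAA (-0.17 to 0.47). Gstt2, the other theta enzyme, read 3441 and 3480.2 in the controls, 3822, 2967 and 5647 with DCAC, and 5433, 3102 and 3335 with DCAA. The controls of Gstt2 lay close together, and 1 mouse in each treated group, DCAC 3 and DCAA 1, stood well above them. Its difference was 0.21 with DCAC (-0.38 to 0.80) and 0.15 with DCAA (-0.44 to 0.73). Gstk1, the kappa enzyme, read 6287 and 6596 in the controls, 7589.6, 6473 and 7598 with DCAC, and 7586, 6409 and 5951 with DCAA, a difference of 0.16 (-0.17 to 0.49) and 0.04 (-0.29 to 0.37). For these 3 genes the limma adjusted p with either compound ran from 0.707 to 0.996.

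DCAC and DCAA, the 1 pair of compounds, were compared at the same dose and time. None of the 15 probe sets passed, 1 had an unadjusted p under 0.05, and 0.00408% and 9.28% of all probe sets did so (limma). That probe set was the brighter one of Gsta3, which stood higher with DCAC by 0.66 (0.18 to 1.14, limma adjusted p = 0.465), with DCAC 3 inside the DCAA range and a difference of 0.41 without DCAA 3. Its second probe set differed by 0.14 (-0.24 to 0.51). Gsta2 was higher with DCAC by 0.77 (-0.10 to 1.64), which ran from 0.42 without DCAC 1 to 1.26 without DCAC 2 and was 0.48 without DCAA 3. Gsta4 was higher by 0.36 (-0.34 to 1.05), which was 0.0023 without DCAA 3, 0.11 without DCAC 3, 0.61 without DCAC 2 and 0.75 without DCAA 1. Gstp1 stood lower with DCAC, at -0.29 (-0.58 to 0.01). For Gstm3 the compounds differed by 0.20 (-0.20 to 0.60) on the brighter probe set and 0.15 (-0.29 to 0.60) on the other, for Gstm2 by -0.06 (-0.40 to 0.28) and for Gstt1 by -0.14 (-0.42 to 0.15). On 1425626_at of Gstm1 the 3 DCAC mice all stood below the 3 DCAA mice (-0.29, -0.63 to 0.04), as on 7.63% of all probe sets, and no other member's groups were separate in this comparison. A p above the threshold does not show that the compounds act alike, and the intervals leave room for differences of the sizes given.

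The 3′/5′ ratio ran with the compound, since the 3 DCAA arrays and DCAC 3 had the higher ratios. The brighter Gsta3 probe set correlated at -0.88 with the log2 ratio over the 8 arrays, and the second at -0.83. Gstp1 correlated with it at 0.72, the brighter Gstm3 probe set at -0.61, the other Gstm3 probe set at -0.71 and Gstm2 at -0.68. These values describe arrays that share groups and ratio. No DCAA array shares a ratio class with a control. With the class as a block, the DCAC difference is that of DCAC 1 and DCAC 2 from the controls, the difference between compounds is that of DCAC 3 from the DCAA arrays, and the DCAA difference chains both, so the last 2 rest on the single array DCAC 3. In that fit the DCAA difference of Gsta3 was -0.28 on the brighter probe set and -0.10 on the other, and that of Gstp1 was 0.02. The difference of Gsta3 between DCAC and DCAA was 0.25 in that fit. That of Gstm3 was -0.92 with DCAC and -1.14 with DCAA on the brighter probe set, and -0.79 and -0.74 on the other. Within the low class alone, DCAC 1 and DCAC 2 read 3178 and 2010.1 for Gstm3 against 4513 and 5071 in the controls. Gsta2 stood at -0.89 and -1.94 and Gsta4 at -0.78 and -1.64 with the block, while Gstm2 stood at -0.35 and -0.13. Gstt2, for which DCAC 3 was the highest of the 8 arrays, was at 0.15 with DCAA without the block and at -0.60 with it. None of the 15 passed in that fit.

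**Figure D3:**
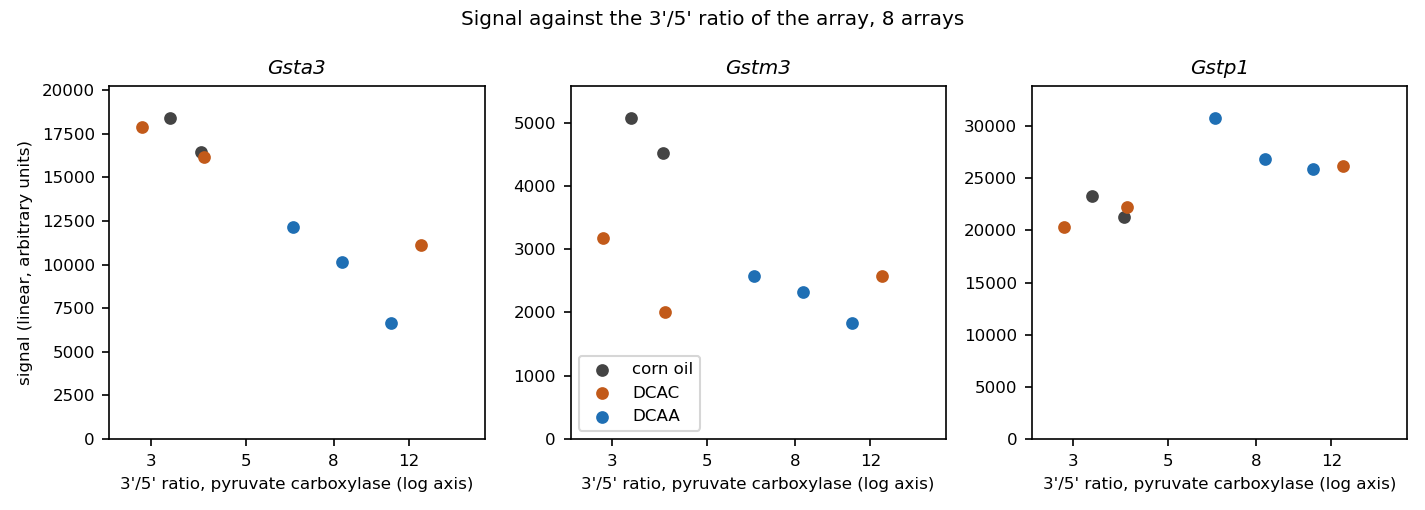
Linear signal (arbitrary units) of the brightest probe set of Gsta3, Gstm3 and Gstp1 against the 3′/5′ ratio of pyruvate carboxylase (log axis), 1 point per array for 8 arrays. The DCAC array with a ratio of 12.8 lies among the DCAA arrays for Gsta3 and Gstp1, and both DCAC arrays with low ratios lie below both corn oil arrays for Gstm3 but not for Gsta3 or Gstp1.

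Members of 1 class did not all vary together. Over the 8 arrays Gsta2 correlated with Gstm3 at 0.88 and with Gsta4 at 0.85, Gstm2 with Gstm3 at 0.85, and Gstm1 with Gstt1 at 0.90. Gstm1 and Gstm3, both of the mu class and near each other on the chromosome, correlated at 0.18, and Gsta3 and Gstp1 at -0.64. Of 12283 other genes, those most like Gstm3 by correlation over the 8 arrays were the translation factor Eif5b (0.96), the helicase Ddx49 (0.95), Tbrg1 (0.95), the RNA-binding protein Hnrnpd (0.94) and Lancl1 (0.94). Those most like Gsta2 were Ero1a, an oxidase of the endoplasmic reticulum (0.98), Uso1, a vesicle tether (0.98), A530016L24Rik (0.96), and again Eif5b and Lancl1 (0.95 each). Those most like Gstp1 were the adenylate cyclase Adcy5 (0.99), the lysosomal transporter Slc66a1 (0.97), Fchsd2 (0.96), the 14-3-3 protein Sfn (0.96) and Gnas (0.95). These are descriptions over 8 arrays that share groups, 3′/5′ ratios and scaling, picked as the highest of many.

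The other glutathione transferases were measured by 11 genes of 19 listed, and 0 of the 11 passed with either compound (limma), with an unadjusted p under 0.05 for 0 with DCAC and 2 with DCAA. Their median difference was -0.09 with DCAC and -0.10 with DCAA. Over all probe sets, the share with such a p was 5.02% with DCAC and 12.6% with DCAA, for this list and those below. Gstm4, the mu gene on the other side of Gstm1, read 2043 and 2065 in the controls, 2476, 2088 and 2754 with DCAC, and 2752, 2290.2 and 1866 with DCAA, and its difference was 0.24 and 0.15. Gstz1, the zeta enzyme that turns dichloroacetate into glyoxylate, read 12138 and 14712 in the controls, 16147, 12837 and 12944 with DCAC, and 13421, 13528 and 7991 with DCAA. DCAA 3 was the lowest of the 8 for Gstz1, and the other mice overlapped. Mgst1, the membrane-bound microsomal enzyme, stood at 0.17 and 0.22, a sign that turned under quantile normalization (-0.05 and -0.13). Gsto1, the omega enzyme, stood at -0.66 with DCAA on 1 probe set (limma adjusted p = 0.345) and at 0.05 on the other.

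Genes that make, use and recycle glutathione had a median difference of 0.10 with DCAC and 0.07 with DCAA over 16 measured genes, of which 0 passed and 2 had an unadjusted p under 0.05 with each compound (limma). Gclm, the regulatory subunit of the rate-limiting ligase, read 4055 and 3593 in the controls, 4393, 4768 and 5193 with DCAC, and 4977, 5115 and 5778 with DCAA. All 6 treated mice exceeded both controls, as on 1273 of the 24531 probe sets tested. The difference was 0.32 and 0.47 (limma adjusted p = 0.967 and 0.240). The other Gclm probe set differed by 0.03 and 0.28, with overlapping groups. Its catalytic partner Gclc stood at -0.25 and -0.17. On the other Gclc probe set all treated mice lay below both controls, as on 5.4% of all probe sets, at -0.45 and -0.25 (limma adjusted p = 0.946 and 0.594). The peroxidase Gpx1 stood at 0.16 and 0.15, and Gpx2, another peroxidase, at -0.82 and -0.36.

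Genes that export conjugates or trim them to mercapturates had a median of -0.06 with DCAC and -0.14 with DCAA over 12 genes, of which 0 passed, with an unadjusted p under 0.05 for 1 gene with DCAC and 2 with DCAA (limma). Acy3, an aminoacylase that acts on mercapturates, read 1709 and 1800.3 in the controls, 2467, 2485 and 2435 with DCAC, and 2374, 2805 and 1917 with DCAA. Every treated mouse was above both controls for Acy3, as on 1273 of the 24531 probe sets tested. Its difference was 0.49 and 0.41 (limma adjusted p = 0.915 and 0.361). The exporter Abcc2 of the canalicular membrane stood at 0.01 and -0.22, and Abcc3 of the sinusoidal membrane at -0.15 and -0.41.

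NRF2 targets and sensors had a median of -0.14 with DCAC and -0.03 with DCAA over 17 genes, of which 0 passed, with an unadjusted p under 0.05 for 4 genes with each compound (limma). Of these 4, 2 were higher and 2 lower with DCAC, and 1 was higher and 3 lower with DCAA. The 1 higher with DCAA was Gclm, which is on this list too and is counted in both. Its values are given above with the genes that make, use and recycle glutathione. The list holds genes on both sides: Nqo1, a quinone reductase and a standard NRF2 target, stood at 0.38 and 0.28, and Nfe2l2, which encodes NRF2, at 0.14 and 0.14. Ephx1, an epoxide hydrolase, stood at -0.50 and -0.51, with all 6 treated mice below both controls, as on 5.4% of all probe sets. The aldehyde oxidase Aox1 stood at -0.59 and -0.19. CAR, PXR and their targets had a median of 0.08 with DCAC and -0.18 with DCAA over 14 genes, of which 0 passed, with an unadjusted p under 0.05 for 0 and 2 genes (limma). In this list Nr1i2, which encodes PXR, stood at -0.35 and -0.10, Cyp2b10 at 0.08 and -0.33 (0.0058 and -0.72, and 0.20 and -0.52, on its other probe sets), Cyp3a11 at 0.12 and 0.28 and the carboxylesterase Ces2a at -0.33 and -0.56.

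**Figure D4:**
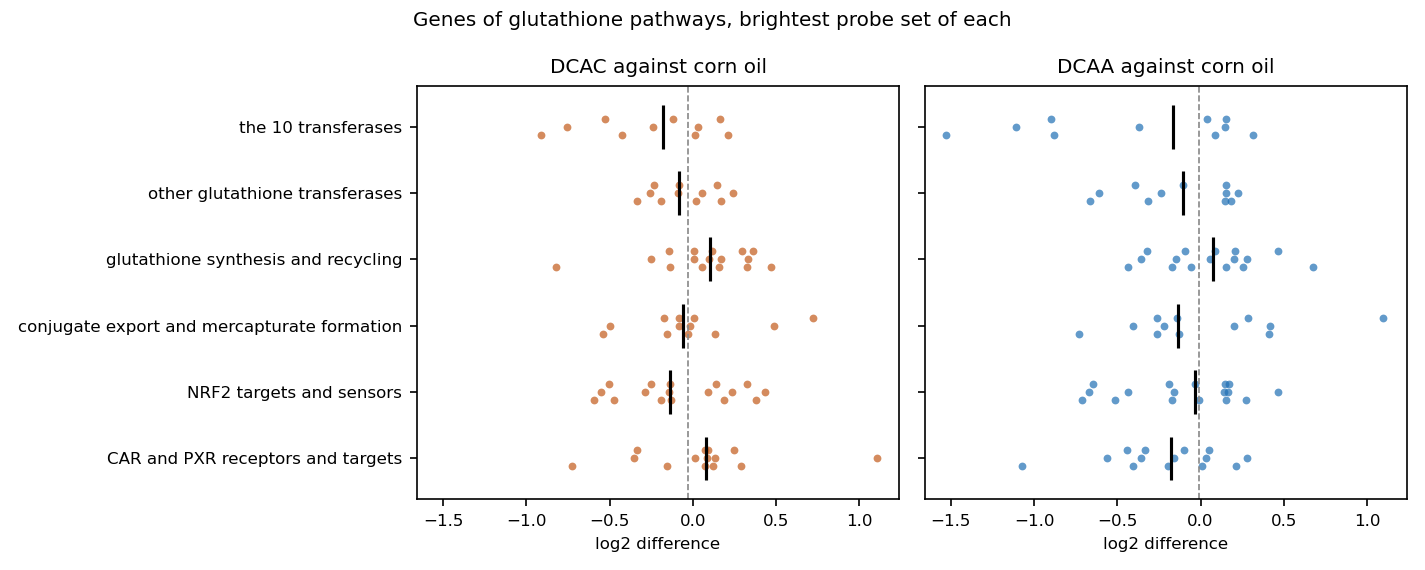
Log2 difference from corn oil, 1 point per gene by its brightest probe set, for the 10 transferases and 5 related lists, with DCAC on the left and DCAA on the right. Black bars are list medians and the dashed line is the median over all probe sets tested. Medians lie between -0.18 and 0.10, and the 10 transferases hold the 2 lowest points with DCAA.

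Cell type markers moved beside these values. The summed signal of 14 hepatocyte markers was 494887 to 507739 in controls, 492032 to 636670 with DCAC and 622342 to 665969 with DCAA. On the deposited scaling it thus stood higher on the DCAA arrays, while Gsta2, Gsta3, Gsta4, Gstm2 and Gstm3 stood lower. DCAC 3, which shared the high 3′/5′ ratio class with the DCAA arrays, read 636670, inside the DCAA range. DCAC 1 and DCAC 2, of the low class, read 492032 and 580115. Over the 16 alternatives without control 2, the DCAA difference ran from 0.04 to 0.55 for Alb and 0.04 to 0.54 for Cyp2e1. With the ratio class as a block it was 0.11 for Alb and 0.26 for Cyp2e1, against 0.48 and 0.47 without the block. That of Cyp3a11 ran from -0.12 to 0.35, with the lowest value under quantile normalization. The sum of 9 neutrophil markers was 1323 to 1745 in controls, 2689 to 2925 with DCAC and 1881 to 4358 with DCAA, and that of 10 T and NK cell markers 1804 to 2760.3, 1277 to 1432 and 1221 to 1503. The sum of 11 macrophage markers was 10494 and 37105 in the controls, and 10784 to 17094 and 13938 to 15601 in the treated groups. The 9 stellate cell markers summed to 9584 to 10654, 9032 to 9519 and 9699 to 15607, the 10 endothelial ones to 7866 to 9289, 5119.9 to 9427 and 7204 to 9936, and the 5 of cholangiocytes to 687 to 1262, 958 to 1100.2 and 846 to 1367. Of the 14 kidney tubule markers, whose sum on these 8 arrays is given above, 1 was at or below the floor on all 8, and of the other lists none of the markers was. Whether these cells bear on the transferase values was not tested. In whole liver, fewer cells of a type and less RNA per cell cannot be told apart.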

How the data were processed

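Total RNA of 1 sample per mouse, labelled as liver, was hybridised to an Affymetrix array. What the authors deposited is 1 linear signal intensity for each probe set and array. GCOS, the Affymetrix software, made these values, per the submitters' processing notes; its version is not given in the sources used here. Array means, trimmed by 2% at each end, are all at 500.0 in the deposited values.

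Groups followed the labels. Each array's 25th percentile served as a floor before log2 was taken. Kept were the 24531 probe sets that exceeded the median of the array on 3 or more of the 8 arrays. Groups were compared in 1 model with limma 3.58.1 in R 4.3.3 (lmFit, eBayes with an intensity trend, two-sided p adjusted by Benjamini and Hochberg over all kept probe sets). The comparison of all treated mice used a model of 2 groups. The procedure was tested on simulated data. Control 2 was left out of the main model. The series text has the livers processed separately, and p-values measure the spread between these mice only. Among 36 pairs of arrays, 0 held identical values.

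A gene is shown by its kept probe set with the highest mean. All members are named. From each related list the genes with the smallest p in either comparison with control, the gene with the highest mean, and Gstz1, Nfe2l2, Nqo1, Gclc, Cyp2b10 and Abcc2 are named. For likeness, the 5 genes with the highest correlation are named. Members and lists were chosen with earlier results of these data known. Genes were matched by identifier to RefSeq's tables for GRCm38.p6 (10 of 10), and the array's gene names follow its platform annotation, which can be old. Alternatives were other scalings (quantile, common median), no floor, no filter, no trend, only the groups compared, all 9 arrays, the 3′/5′ ratio class or the replicate number as a block, and each mouse left out.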

Additional observations from a re-analysis of the deposited data

How the results depend on the processing

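The 15 probe sets of the members gave 1005 values under alternatives, and 927 kept their sign and stayed short of the threshold. Another 52 turned sign but had lain within 1 standard error of 0, 24 turned sign from further away (16 of them with all 9 arrays), and 2 newly passed, both of Gstm3 (without DCAA 1 and without DCAC 1, given above). The cause of these shifts was not tested. With 2 or 3 arrays a group, and 1 control where the other is left out, so that limma takes its spread from the other groups, differences smaller than the intervals cannot be told from 0. Values with all 9 arrays put the array rich in kidney markers among the controls.

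The values listed here turned sign and had lain more than 1 standard error from 0; those nearer to 0 that turned, such as Gsta3 1423436_at with DCAC (to 0.91 with all 9 arrays), are in the count of 52. With all 9 arrays the DCAC differences of this kind among members were Gsta3 1423437_at at 0.77, Gstm1 at 0.16, 0.28 and 0.52 (1425626_at, 1425627_x_at and 1448330_at), and Gstm3 at 0.11 and 0.50. With DCAA they were Gsta3 at 0.25 and 0.63, Gstm1 1425627_x_at at 0.45 and Gstm3 1427473_at at 0.35. Over all treated mice they were Gsta3 at 0.58 and 0.70, Gstm1 at 0.30 and 0.36, and Gstm3 at 0.43 (1427473_at) and 0.0093 (1427474_s_at). Blocking on the ratio class put Gstm1 1425627_x_at with DCAA at 0.16, Gstm1 1416416_x_at between compounds 0.0026 and Gstp1 over all treated mice -0.067, and Gstp1 was -0.083 there under quantile normalization. Between compounds a common median gave 0.049 for Gstt1, 0.024 for Gstm1 1425627_x_at and 0.0065 for Gstm1 1448330_at, which ran from -0.28 to 0.0089 over the fits that leave out 1 mouse, with its highest value without DCAA 1.

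Of the other named genes, and again of values more than 1 standard error from 0, all 9 arrays turned the DCAC values of Acy3 (-0.46), Aox1 (1.43), Ces2a (2.29), Ephx1 (0.67), Nqo1 (-0.029) and Nr1i2 (0.38), and the DCAA values of Abcc3 (0.093), Acy3 (-0.53), Aox1 (1.83), Ass1 (0.10), Ces2a (2.06), Cyp2b10 (1.01), Ephx1 (0.66), Gpx2 (0.32), Gstz1 (0.28) and Nqo1 (-0.13). Quantile normalization turned Alb (-0.0031) and Mgst1 (-0.045) with DCAC, and Mgst1 (-0.13) and Cyp3a11 (-0.12) with DCAA. The ratio class as a block turned Cyp7a1 (-0.035) and Gpx2 (0.26) with DCAA. Leaving out 1 mouse gave DCAA values of -0.40 to 0.027 for Aox1 and -0.69 to 0.032 for Cyp2b10, both positive without control 3, and of -0.38 to 0.012 for Gstz1, positive without DCAA 3.

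The number of probe sets that passed over the whole array was 8 with DCAC, 20 with DCAA, 1 between compounds and 18 over all treated mice (limma). With all 9 arrays it was 0 in each, with 1336, 3025, 1446 and 2584 at an unadjusted p under 0.05. Without the trend it was 0, 0, 0 and 2 (1131, 2713 and 2181 unadjusted in the empty ones), without a filter 1, 4 and 0 in the comparisons of each compound (5171 unadjusted in the last), and 2, 0, 3 and 5 under the block on ratio class (1491 unadjusted with DCAA). A common median gave 9 with DCAA and 0 between compounds (2961 unadjusted), and moved the median of all probe sets to -0.12 and 0.17 there. Only the groups compared gave 2 between compounds. Leaving out 1 mouse gave 2 to 14 with DCAC (14 without DCAA 1, 5 without DCAC 2 or control 3, 3 without control 1, 2 without DCAC 3), 3 to 87 with DCAA (87 without DCAA 1, 36 without DCAC 3, 7 without control 1, 5 without DCAA 2, 4 without control 3, 3 without DCAA 3), 0 to 2 between compounds and 4 to 27 over all treated mice (9 without control 1 or DCAA 2, 4 without control 3, 27 without DCAC 1).

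The replicate numbers did not pair the mice: deviations of same-numbered arrays correlated at -0.04 to 0.03 (7 pairs) and those of other numbers at -0.07 to 0.07 (14 pairs). With the replicate block 7, 17, 1 and 7 probe sets passed, and no call of a member changed.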

Other observations

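Genes that mark the zones of the liver lobule showed 1 difference that passed. Cyp7a1, the pericentral, rate-limiting enzyme of bile acid synthesis, read 1560 and 3225 in the controls, 7461, 8507 and 12225 with DCAC, and 3674, 2821 and 3657 with DCAA. It rose with DCAC by 2.03 (1.42 to 2.65, limma adjusted p = 0.0312), and with DCAA it stood at 0.58 (limma adjusted p = 0.420). Its other probe set stood at 0.93 with DCAC and did not pass (limma adjusted p = 0.634). The rise did not pass without control 1 (1.51), DCAC 2 (2.09), DCAC 3 (1.83), DCAA 2 or DCAA 3 (2.03 each), without a filter, without the trend, with only the groups compared, with the ratio class as a block (1.83) or with all 9 arrays (3.67). The adjusted p over these ran from 0.0577 to 0.765. The 16 pericentral genes had a median of 0.12 with DCAC and 0.27 with DCAA, and 0 passed with DCAA (3 higher and 2 lower at an unadjusted p under 0.05, limma). Tbx3, a pericentral transcription factor, stood at 0.84 and 1.01 on its brightest probe set, at 0.65 and 0.53 and at -0.11 and -1.59 on its others, and Cyp2e1, an oxidase that metabolises chlorinated hydrocarbons, at 0.29 and 0.47.

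The 10 periportal genes had a median of 0.06 with DCAC and 0.20 with DCAA, and 0 passed with either compound, with an unadjusted p under 0.05 for 1 and 3 genes (limma). Ass1, a urea cycle enzyme, read 3478 and 3634 in the controls, 1863, 978 and 1397 with DCAC, and 3792, 2265 and 3008 with DCAA on its brightest probe set, a difference of -1.38 with DCAC (-1.95 to -0.82, limma adjusted p = 0.176) and -0.27 with DCAA. All DCAC mice stood below all other mice for Ass1. Alb, which encodes albumin, stood at 0.24 and 0.48.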
